A study of Mus musculus with 32 samples.

Results

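The genes described here build the kinetochore, move the mitotic spindle, shape chromosomes for division and cut the dividing cell apart. They were chosen by name, 56 genes in all, and were followed in bone marrow-derived macrophages (BMDMs) from which the exonuclease gene Trex1 could be deleted. By role they are 7 spindle checkpoint genes, 8 genes of the outer kinetochore, 8 of the centromere, 7 mitotic kinases and their partners, 9 kinesins, 5 spindle proteins, 4 cytokinesis genes, 6 genes of chromosome structure and 2 genes of the anaphase-promoting complex (APC/C). All 56 were found by their Ensembl identifier among the 54281 identifiers of the count table, and all 56 were among the 15257 genes that passed a filter on low counts and were tested.

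The cells were R26-CreERT2 macrophages of 2 genotypes, Trex1 FL/FL, with loxP sites around both alleles, and Trex1 WT/FL, grown from marrow in medium conditioned by L929 cells. All cells thus carried a Cre recombinase that works only once 4-hydroxytamoxifen (4-OHT) is bound, expressed from the ubiquitous Rosa26 locus, and WT/FL cells keep 1 Trex1 allele without loxP sites. Part of each genotype received 2 µg/ml 4-OHT for 22 h and part stayed untreated, and RNA was sequenced 1, 2, 3 and 4 days after treatment. The 4 arms and 4 days make 16 groups of 2 libraries, 32 libraries in all. Neither animal, culture nor batch is named in the labels, so that p-values measure the spread between libraries, which may be technical, and the age of the mice is not given there.

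In a dividing cell the kinetochore forms on centromeric chromatin and holds the ends of spindle microtubules, while the spindle checkpoint keeps the APC/C inactive until every chromosome is attached. Once the checkpoint is satisfied, CDC20 and the APC/C mark securin and cyclin B for destruction, chromosomes separate, and kinesins, PRC1 and the centralspindlin complex build the midzone where the cell is cut. Most of these genes are transcribed in G2 and mitosis and are kept silent in resting cells by the DREAM complex. Macrophages grown from marrow multiply in response to M-CSF and slow down as the culture matures.

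Totals per library ranged from 35120505 to 63760884 counts with a median of 44841991. Trex1 was at 0 counts in both libraries of 4-OHT-treated FL/FL cells on days 1, 3 and 4 and at 14 and 9 counts on day 2, against 758 to 3622 counts in 4-OHT-treated WT/FL cells, so that the labels and the deletion matched. All 9 macrophage markers listed (Csf1r, Adgre1, Cd68 and others) had a group mean above 1 CPM (counts scaled to library size) in each of the 16 groups. Their summed levels were 15449 to 48888 CPM across the libraries. Markers of other cells were low, with sums of 6.34 to 37.4 CPM for granulocytes and progenitors, 1.31 to 6.58 CPM for B cells, 0.689 to 2.67 CPM for dendritic cells and 0.396 to 3.25 CPM for stromal cells. T and NK cell markers summed to 0 to 0.212 CPM with 2 genes at 0 throughout, mast cell and basophil markers to 0 to 0.198 CPM with 3 at 0, and erythroid markers to 0 to 0.205 CPM with 1 at 0. In each of the 16 groups the 2 libraries were further apart than counting noise allows (chi-square divided by its degrees of freedom, 9.02 to 47.4) and were counted as separate. The pair furthest apart, at 47.4, was that of untreated FL/FL cells on day 1, and the next was at 20.4.

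The mitotic genes were high on day 1 and fell steeply by day 3 in all 4 arms. Together they held 6024 to 6544 CPM in the 8 libraries of day 1 and 502 to 604 CPM in the 8 libraries of day 3, with no overlap between these days. On day 2 the median member stood at 50.1% of its day 1 level in 4-OHT-treated FL/FL cells, 59.5% in 4-OHT-treated WT/FL cells, 62.8% in untreated FL/FL cells and 63.6% in untreated WT/FL cells. On day 3 these medians were 5.66, 4.69, 5.57 and 5.17%. In bulk RNA, fewer dividing cells and less of a transcript per cell cannot be told apart. The macrophage markers moved over the same days, from 15449 to 17502 CPM on day 1 upward, and the part of a changing mixture of cells in the fall of the mitotic genes was not tested.

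**Figure D1:**
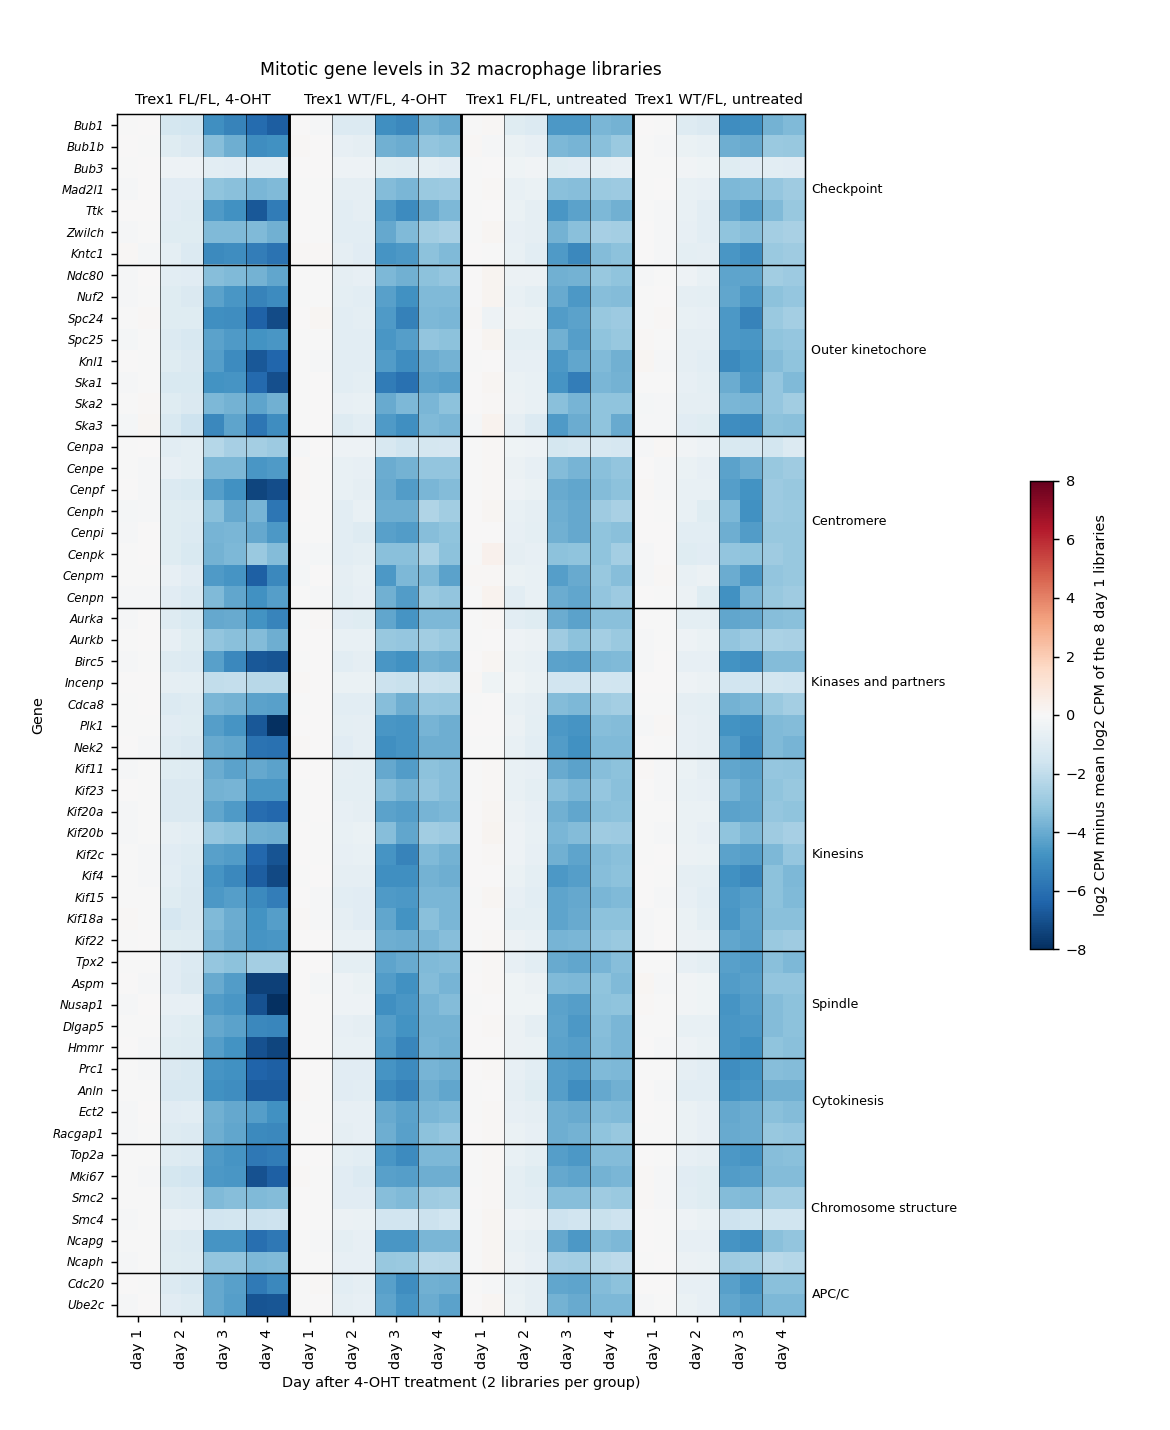
Level of the 56 genes in each of the 32 libraries, as log2 CPM minus the mean of the 8 day 1 libraries. Rows are genes grouped by role and columns are libraries grouped by arm and day; blue is below the day 1 mean. All arms are near the day 1 level on day 1 and far below it on day 3, and on day 4 the 4-OHT-treated FL/FL columns are the darkest while those of the other 3 arms are paler than on day 3.

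The steep step was that from day 2 to day 3. A gene is called here when edgeR's quasi-likelihood test gave it an adjusted p under 0.01 (Benjamini-Hochberg, over all tested genes) and a log2 fold change beyond 1.5 in either direction, and each adjusted p printed is from that test. At these thresholds 53 of the 56 genes fell from day 2 to day 3 in 4-OHT-treated FL/FL cells (3.79% of all tested genes did), and 52 fell in each of the other arms (3.89% of all tested genes in 4-OHT-treated WT/FL, 4.02% in untreated FL/FL and 3.96% in untreated WT/FL cells). The median log2 fold changes were −3.11, −3.56, −3.38 and −3.70 in the same order of arms. In 4-OHT-treated FL/FL cells Kntc1 (−4.14), Spc24 (−4.05) and Cenpm (−4.01) fell most. Bub3 (−0.47), Smc4 (−0.89) and Incenp (−1.20) fell least and were the only 3 below the fold threshold, while Cenpa joined them in the other 3 arms. At an adjusted p below 0.05 whatever the fold, all 56 genes were lower on day 3 than on day 2 in each arm, against 22.6, 23, 22.6 and 22.2% of all tested genes.

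From day 1 to day 2 the fall was shallow. None of the 56 genes was called, 0 in each arm by edgeR and by DESeq2, although all 56 had an unadjusted p below 0.05 in each arm. The share of all tested genes called lower was 2.35% in 4-OHT-treated FL/FL, 2.06% in 4-OHT-treated WT/FL, 1.81% in untreated FL/FL and 1.85% in untreated WT/FL cells. At an adjusted p below 0.05 whatever the fold, 56, 56, 55 and 56 genes were lower on day 2 in these arms, against 24.2, 22.9, 22.9 and 22.8% of all tested genes. Median log2 fold changes were −0.997 in 4-OHT-treated FL/FL cells, −0.75 in 4-OHT-treated WT/FL cells, −0.67 in untreated FL/FL cells and −0.65 in untreated WT/FL cells. Leaving out FL/FL 4-OHT libraries one at a time brought at most 1 gene past the fold threshold.

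On day 4 the arms parted. In 4-OHT-treated FL/FL cells the 2 libraries summed to 383 and 378 CPM, below every day 3 library, whereas 4-OHT-treated WT/FL cells reached 748 and 739 CPM, untreated FL/FL cells 794 and 813 CPM, and untreated WT/FL cells 854 and 860.1 CPM. The median gene stood at 2.87% of its day 1 level in 4-OHT-treated FL/FL cells, and at 8.58, 9.69 and 11.3% in the other 3 arms. From day 3 to day 4, 17 of the 56 genes fell past both thresholds in 4-OHT-treated FL/FL cells (0.577% of all tested genes did). They were Spc24, Knl1, Ska1, Cenpf, Birc5, Plk1, Nek2, Kif20a, Kif2c, Kif4, Aspm, Nusap1, Hmmr, Prc1, Anln, Mki67 and Ube2c. By an adjusted p below 0.05 alone, 41 genes were lower (9.01% of all tested genes) and Tpx2 was higher (6.73% of all tested genes).

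Over the same step the genes moved upward in the other 3 arms. At an adjusted p below 0.05, 49 genes were higher on day 4 than on day 3 in 4-OHT-treated WT/FL cells (10.3% of all tested genes), 46 in untreated FL/FL cells (10.4%) and 51 in untreated WT/FL cells (9.73%), with median log2 fold changes of 0.89, 0.72 and 1.13. Few of these rises were large enough to be called. In 4-OHT-treated WT/FL cells Ska1 alone passed (0.354% of all tested genes were called higher), and leaving out WT/FL 4-OHT day 3 replicate 1 raised this count to 3, leaving out day 4 replicate 2 raised it to 2, and leaving out day 3 replicate 2 lowered it to 0. In untreated FL/FL cells 0 genes were called by edgeR and by DESeq2 (0.341% of all tested genes, and 49 of the 56 at an unadjusted p below 0.05), and up to 2 were called with 1 library left out. In untreated WT/FL cells Kntc1, Spc24, Spc25, Knl1, Ska3, Cenpf, Kif4 and Ncapg passed, 8 genes (0.465% of all tested genes), and the count ranged from 6 to 11 with 1 library left out.

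**Figure D2:**
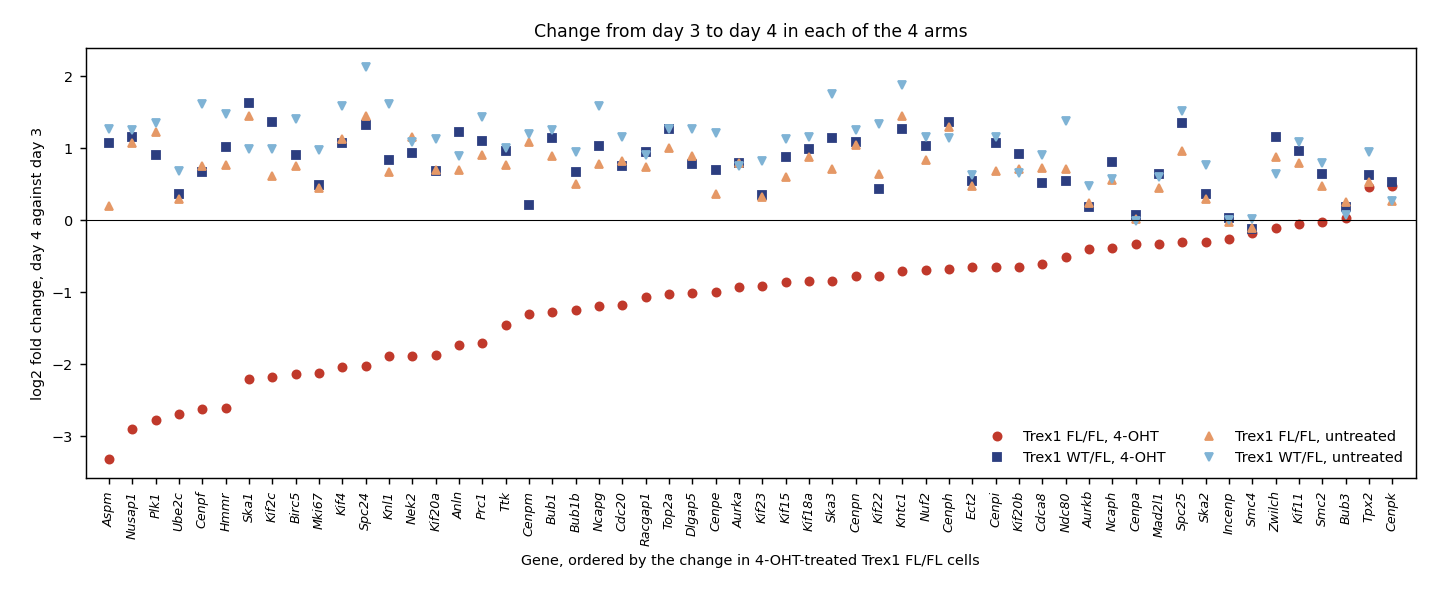
Log2 fold change of day 4 against day 3 for each of the 56 genes in each of the 4 arms, with genes ordered by their value in 4-OHT-treated FL/FL cells. Most points of that arm lie below 0, down to −3.31 for Aspm, and most points of the other 3 arms lie above 0.

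Because the drop in one arm and the rise in the other do not by themselves show a difference, the change of the genotype difference between successive days was tested. Among 4-OHT-treated cells, the difference of FL/FL from WT/FL cells moved downward from day 3 to day 4 in 56 of 56 genes by sign. The median change was −1.85 against −0.01 over all tested genes. Tpx2 stayed higher in FL/FL cells on both days. Of the 56, 35 passed both thresholds (0.701% of all tested genes) and 47 an adjusted p below 0.05 alone (3.87% of all tested genes). Aspm (−4.38, standard error 0.30, edgeR adjusted p = 4.59e-10), Nusap1 (−4.06, 0.23, 1.76e-12) and Ska1 (−3.83, 0.49, 5.4e-06) changed most. The smallest changes were those of Bub3 (−0.16, edgeR adjusted p = 0.284), Smc4 (−0.06, 0.816) and Cenpk (−0.05, 0.981), which did not pass.

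The earlier steps were small beside it. From day 1 to day 2 the difference moved by a median of −0.22, with 0 genes called by edgeR and by DESeq2 (0.00655% of all tested genes called lower, and 19 of the 56 at an unadjusted p below 0.05) and 3 lower at an adjusted p below 0.05 (1.11% of all tested genes). These 3 were Aspm (−0.57, edgeR adjusted p = 0.0323), Kif20a (−0.43, 0.021) and Kif22 (−0.41, 0.039). From day 2 to day 3 it moved the other way, by a median of 0.41, again with 0 genes called by both tools (0.0328% of all tested genes called higher, and 30 of the 56 at an unadjusted p below 0.05). There, 12 genes were higher (1.09% of all tested genes) and Cenpa was lower (1.63% of all tested genes) at an adjusted p below 0.05, with the largest rises in Ska1 (1.55, edgeR adjusted p = 0.013), Tpx2 (1.12, 1.68e-05) and Kif18a (1.12, 0.0132).

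**Figure D3:**
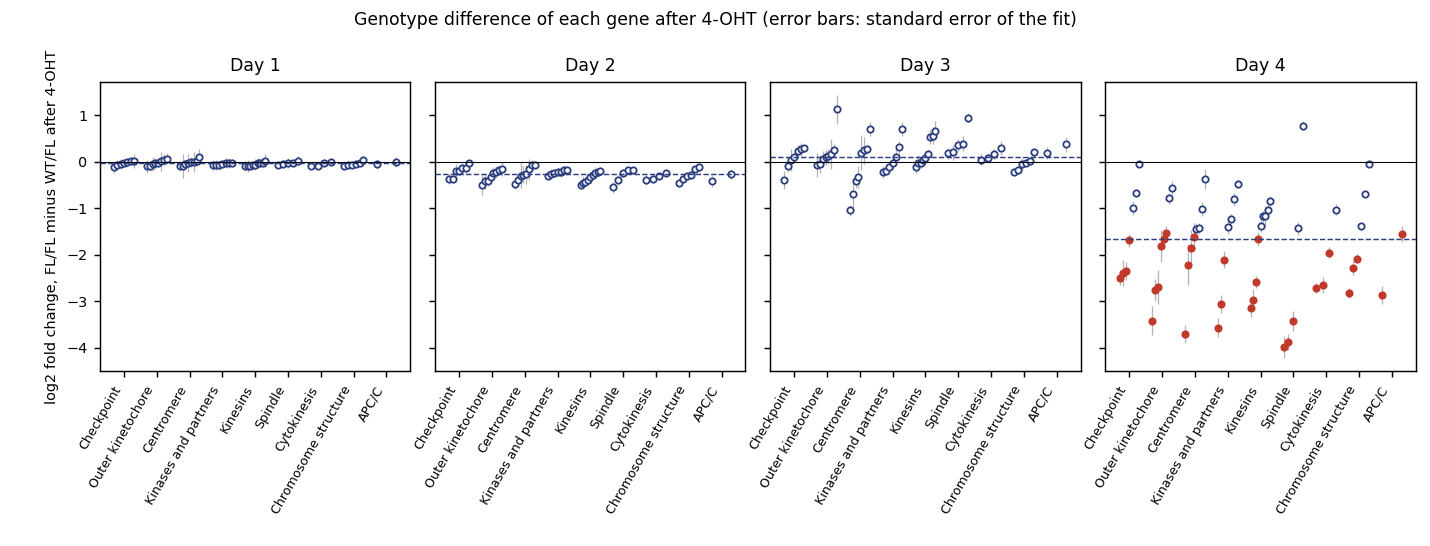
Log2 fold change of FL/FL against WT/FL cells after 4-OHT on days 1 to 4, 1 point per gene by role. Filled red points passed both thresholds, open points did not, bars are standard errors and the dashed line is the median of the 56 genes, which is −0.03, −0.27, 0.11 and −1.66 on days 1 to 4.

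Day by day, 4-OHT-treated FL/FL and WT/FL cells started alike in these genes. On day 1 the median log2 fold change was −0.03, and 0 genes were called by edgeR and by DESeq2 or reached an unadjusted p below 0.05 (0.00655% of all tested genes were called lower). On day 2 all 56 genes were lower in FL/FL cells by a median of −0.27, against −0.01 over all tested genes. None was called by edgeR or by DESeq2 (0.0852% of all tested genes were called lower, and 35 of the 56 had an unadjusted p below 0.05), while 21 were lower at an adjusted p below 0.05 (4.79% of all tested genes). The libraries did not overlap in 51 of these genes, with FL/FL below WT/FL (26.6% of all tested genes). Aspm (−0.55, standard error 0.11, edgeR adjusted p = 0.00124) and Kif20a (−0.49, 0.08, 7.31e-05) were among the genes that passed on day 2.

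On day 3, at the low point, the median difference was 0.11, and it ranged from −0.0013 without WT/FL 4-OHT day 3 replicate 2 to 0.26 without FL/FL 4-OHT day 3 replicate 2. By edgeR and by DESeq2 0 genes were called (0.485% of all tested genes called higher and 0.387% lower, and 21 of the 56 at an unadjusted p below 0.05). At an adjusted p below 0.05, Mad2l1, Ska1, Cenpi, Nek2, Kif20b, Kif2c, Kif18a and Tpx2 were higher in FL/FL cells, 8 genes where all tested genes gave 9.9%, and Cenpa and Cenpf were lower, 2 genes where all tested genes gave 9.11%. Measured as an interaction with the untreated genotypes, the day 3 median was −0.14.

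On day 4, 55 of the 56 genes were lower in FL/FL cells, by a median of −1.66 against −0.04 over all tested genes. At both thresholds 32 genes were lower (1.32% of all tested genes) and none was higher (1.65% of all tested genes). Irrespective of the fold, 52 were lower at an adjusted p below 0.05 (16.8% of all tested genes) and Tpx2 was higher (13.4% of all tested genes). The 2 FL/FL libraries lay below both WT/FL libraries in the same number of genes, 52 (35% of all tested genes). Aspm (−3.99, standard error 0.23, edgeR adjusted p = 2.87e-12), Nusap1 (−3.87, 0.18, 2.54e-15) and Cenpf (−3.70, 0.20, 4.73e-13) differed most, which is 15.9-fold, 14.7-fold and 13.0-fold lower in FL/FL cells, on 10 to 25 counts per FL/FL library. Bub3, Smc4 and Cenpk did not pass. With 1 library left out the number called was between 29 and 32, and 7 of the 32 genes (Spc25, Ska3, Cenph, Cenpm, Cenpn, Kif15 and Cdc20) lost the call in at least 1 of these fits.

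Beside these results, the granulocyte and progenitor markers summed to 29.1 to 37.4 CPM on day 1, and on day 4 to 8.08 and 8.17 CPM in 4-OHT-treated FL/FL against 9.86 and 19.4 CPM in 4-OHT-treated WT/FL cells. The macrophage markers summed to 29831 and 31768 CPM against 31387 and 32164 CPM in the same day 4 libraries, and to 39134 and 39508 against 45945 and 48306 CPM on day 3. Their part in the genotype difference was not tested.

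Among the spindle checkpoint genes, 4 of 7 were called lower on day 4 and 6 of 7 were lower at an adjusted p below 0.05, with a median of −1.69. Bub1b (chromosome 2 of GRCm39, 118428684 to 118472076, plus strand) encodes BUBR1, which inhibits CDC20 as part of the mitotic checkpoint complex. Its 2 libraries of 4-OHT-treated FL/FL cells stood at 139 and 129 CPM on day 1, 69.1 and 60.3 CPM on day 2, 12.4 and 8.93 CPM on day 3, and 4.26 and 4.63 CPM on day 4. In 4-OHT-treated WT/FL cells they stood at 143 and 137, 86.4 and 80.8, 9.33 and 8.55, and 14.9 and 13.7 CPM on these days. The genotypes overlapped on day 1 and were apart on day 4, where WT/FL was higher by more than the spread (log2 fold change −1.69, standard error 0.14, edgeR adjusted p = 1.87e-09). The untreated cells, with 13.3 and 17.0 CPM in FL/FL and 17.0 and 16.4 CPM in WT/FL, lay close to the 4-OHT-treated WT/FL cells on day 4.

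Bub3 (chromosome 7, 131161880 to 131178553, plus strand), the partner that brings BUB1 and BUBR1 to the kinetochore, kept the largest share of its day 1 level of all 56 genes on days 3 and 4 in each arm. It stood at 128 and 131 CPM on day 1, 72.4 and 68.3 CPM on day 3 and 72.7 and 71.2 CPM on day 4 in 4-OHT-treated FL/FL cells. The 4-OHT-treated WT/FL libraries held 131 and 133, 66.9 and 63.3, and 77.5 and 70.8 CPM on these days. The genotypes overlapped on day 4 (−0.04, standard error 0.05, edgeR adjusted p = 0.597). Bub1, the kinase of the checkpoint (−2.50), Ttk, the kinase MPS1 that starts its signal (−2.38), and Kntc1, a subunit of the RZZ complex (−2.35), were the other called genes besides Bub1b. Ttk held 9 and 21 counts in the FL/FL libraries, and its difference was −3.18 without FL/FL 4-OHT day 4 replicate 2 and −1.84 without replicate 1. Mad2l1, which encodes MAD2, was at 8.58 and 9.35 CPM against 14.0 and 14.6 CPM (−0.67, standard error 0.08, edgeR adjusted p = 3.57e-07), below the fold threshold.

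In the outer kinetochore, which binds microtubules, 6 of 8 genes were called lower on day 4 and all 8 were lower at an adjusted p below 0.05, with a median of −1.74. The 4 subunits of the NDC80 complex spread widely: Spc24 was lower by −3.41 (standard error 0.32, edgeR adjusted p = 2.26e-09), Nuf2 by −1.66, Spc25 by −1.53 and Ndc80 itself by −0.79 (0.12, 5.21e-06). Spc24 was at 0.221 and 0.121 CPM in FL/FL against 1.91 and 1.84 CPM in WT/FL cells, which is 8 and 4 counts against 113 and 85. Spc25 was −1.46 without WT/FL 4-OHT day 4 replicate 1, short of the fold threshold, and the call was also lost without FL/FL replicate 1. Ndc80 (chromosome 17, 71803093 to 71833860, minus strand) fell from 57.4 and 62.3 CPM on day 1 to 5.82 and 5.25 CPM on day 3 and 4.35 and 3.36 CPM on day 4 in 4-OHT-treated FL/FL cells. In WT/FL cells its levels were 61.2 and 59.8, 4.97 and 4.18, and 6.33 and 7.05 CPM. Both pairs were low on day 3, and on day 4 the WT/FL pair was above its day 3 level (0.54, standard error 0.11, edgeR adjusted p = 0.00059).

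The SKA complex, which keeps kinetochores on shrinking microtubules, also held large and small differences. Ska1 and Ska3 were called lower on day 4 (−2.70, standard error 0.37, edgeR adjusted p = 1.47e-06, and −1.81), whereas Ska2 was lower by −0.56 (0.16, 0.00745). Ska2 stood at 1.72 and 2.18 CPM in FL/FL against 2.55 and 3.22 CPM in WT/FL cells. Ska1 was sparse, with 5 and 2 counts in FL/FL against 41 and 30 counts in WT/FL cells on day 4, and its difference ranged from −3.42 without FL/FL 4-OHT day 4 replicate 1 to −2.26 without replicate 2. Without FL/FL replicate 1 Ska3 was at −1.41 and not called (edgeR adjusted p = 0.0153). On day 3 Ska1 had been higher in FL/FL cells (1.13, standard error 0.31, edgeR adjusted p = 0.0152), at 16 and 28 counts against 13 and 8. The untreated WT/FL libraries of that day held 40 and 22 counts of Ska1. Knl1, the scaffold that receives the checkpoint proteins, was called with −2.77.

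At the centromere 4 of 8 genes were called lower on day 4 and 7 of 8 were lower at an adjusted p below 0.05, with a median of −1.53. Cenpf, a large protein of the kinetochore corona, was at 0.637 and 0.757 CPM against 8.59 and 9.62 CPM, and Cenpm, Cenph and Cenpn, subunits of the constitutive centromere network, were lower by −2.22, −1.85 and −1.61. These 3 calls rested on few counts. Cenph held 37 and 7 counts in the FL/FL libraries, and its difference was −3.41 without FL/FL 4-OHT day 4 replicate 1 and −1.15 without replicate 2, where the call was lost, as it was without WT/FL replicate 1. Cenpm held 2 and 7 counts, ranged from −3.41 without FL/FL replicate 2 to −1.53 without replicate 1 (edgeR adjusted p = 0.0268), and lost the call there and without WT/FL replicate 1. Cenpn was at −1.38 without FL/FL replicate 1 and then not called. Cenpk, from the same network, stood at 1.52 and 1.06 CPM against 2.08 and 1.23 CPM and overlapped between genotypes (−0.37, standard error 0.22, edgeR adjusted p = 0.239). Subunits of 1 network thus ranged from −2.22 to −0.37.

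Cenpa (chromosome 5, 30824121 to 30842921, plus strand), the histone H3 variant that marks centromeres, was lower in FL/FL cells on day 3 as well as on day 4. Its libraries held 91.1 and 95.6 CPM on day 1, 52.8 and 54.1 CPM on day 2, 19.2 and 14.7 CPM on day 3, and 14.0 and 12.7 CPM on day 4 in 4-OHT-treated FL/FL cells. In 4-OHT-treated WT/FL cells they held 89.2 and 94.5, 70.2 and 69.5, 38.6 and 30.7, and 35.5 and 37.3 CPM. The genotypes did not overlap from day 2 on. On day 3 the difference was −1.05 (standard error 0.12, edgeR adjusted p = 7.24e-07) and on day 4 −1.44 (0.12, 2.34e-09), just short of the fold threshold, which it passed with −1.52 when FL/FL 4-OHT day 4 replicate 1 was left out. From day 3 to day 4 the difference changed by −0.40 (edgeR adjusted p = 0.19). Untreated cells lay near these WT/FL levels, with 35.9 and 38.6 CPM in FL/FL and 39.5 and 37.7 CPM in WT/FL cells on day 3, and neither untreated arm passed a test from day 3 to day 4 (0.02 and −0.01, edgeR adjusted p = 0.921 and 0.976).

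Among the mitotic kinases and their partners 3 of 7 genes were called lower on day 4 and all 7 were lower at an adjusted p below 0.05, with a median of −1.41. Plk1 (chromosome 7, 121758646 to 121769108, plus strand), the polo-like kinase of mitotic entry and exit, fell from 94.7 and 94.0 CPM on day 1 to 4.62 and 3.68 CPM on day 3 and 0.858 and 0.303 CPM on day 4 in 4-OHT-treated FL/FL cells. In WT/FL cells it fell to 3.79 and 3.75 CPM and stood at 7.56 and 6.53 CPM on day 4, and untreated cells reached 9.07 and 8.71 CPM in FL/FL and 8.52 and 8.71 CPM in WT/FL. The day 4 genotype difference was −3.57 (standard error 0.20, edgeR adjusted p = 5.1e-13), or 11.9-fold, and it was −4.54 without FL/FL 4-OHT day 4 replicate 1 and −3.04 without replicate 2, which held 31 and 10 counts. The annotated transcripts of Plk1 share 10.7% of their 31-base words with a pseudogene, Plk-ps1.

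The chromosomal passenger complex was not uniform. Birc5, which encodes survivin, was called with −3.05, at 0.747 and 0.696 CPM against 6.25 and 5.77 CPM. Its kinase Aurkb (chromosome 11, 68936467 to 68944764, plus strand) was at 7.25 and 5.36 CPM in FL/FL against 11.8 and 10.4 CPM in WT/FL cells on day 4 (−0.81, standard error 0.14, edgeR adjusted p = 5.56e-05), after 9.06 and 7.81 against 10.1 and 9.38 CPM on day 3. Cdca8, which encodes borealin, was lower by −1.23, and Incenp, the scaffold of the complex, by −0.48 (0.08, 4.4e-05), at 42.9 and 42.7 CPM against 60.3 and 58.8 CPM. Aurka, the spindle pole kinase, was lower by −1.41, and Nek2, a centrosomal kinase, was called with −2.10 on day 4 after it had been higher by 0.71 on day 3 (0.16, 0.00139).

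All 9 kinesins were lower on day 4 at an adjusted p below 0.05 and 4 were called, with a median of −1.38. Kif20a, the kinesin that carries the passenger complex to the midzone, stood at 134 and 135, 61.9 and 63.0, 7.92 and 6.02, and 1.99 and 1.73 CPM on days 1 to 4 in 4-OHT-treated FL/FL cells. Its levels in 4-OHT-treated WT/FL cells were 138 and 142, 88.8 and 87.0, 7.23 and 6.61, and 10.8 and 11.5 CPM. The genotypes were apart on day 2, met on day 3 and were apart again on day 4 (−2.58, standard error 0.13, edgeR adjusted p = 2.47e-14). Kif4 (−3.14), a chromokinesin, Kif2c (−2.97), a microtubule depolymerase, and Kif15 (−1.66), which helps to keep spindle poles apart, were the other called kinesins, and Kif15 was at −1.47 and not called without FL/FL 4-OHT day 4 replicate 2. Kif11, the motor that separates the poles, was among the least changed kinesins, with 9.16 and 8.05 CPM against 16.4 and 14.5 CPM (−0.85).

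The spindle proteins held both extremes. Aspm, which acts at spindle poles, was at 91.0 and 84.8 CPM on day 1, 5.44 and 4.00 CPM on day 3 and 0.471 and 0.454 CPM on day 4 in 4-OHT-treated FL/FL cells, against 92.1 and 81.2, 3.96 and 3.04, and 7.90 and 6.83 CPM in WT/FL cells. Nusap1, a microtubule bundler, was at 0.664 and 0.303 CPM on day 4 against 6.65 and 7.89 CPM, and Hmmr at 0.803 and 0.605 CPM against 7.87 and 7.31 CPM. All 3 were called, with both FL/FL libraries below both WT/FL libraries on day 4. Nusap1 rested on 24 and 10 counts in FL/FL cells, and its difference ranged from −4.57 without FL/FL 4-OHT day 4 replicate 1 to −3.44 without replicate 2. Dlgap5, a stabilizer of kinetochore fibres, was lower by −1.43.

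Tpx2 (chromosome 2, 152689854 to 152737245, plus strand), the spindle assembly factor that activates Aurora A, was the exception among the 56 genes on day 4. After 169.5 and 172 CPM on day 1 it stood at 20.6 and 17.8 CPM on day 3 and 26.4 and 26.2 CPM on day 4 in 4-OHT-treated FL/FL cells. In WT/FL cells it held 179.7 and 176 CPM on day 1, 9.31 and 10.6 CPM on day 3 and 14.9 and 15.9 CPM on day 4. The FL/FL libraries were above the WT/FL libraries on both later days, by 0.95 on day 3 (standard error 0.10, edgeR adjusted p = 1.84e-07) and by 0.77 on day 4 (0.10, 6.6e-07). Untreated cells were nearer to WT/FL, with 10.4 and 9.82 CPM on day 3 and 13.0 and 16.6 CPM on day 4 in FL/FL cells. From day 3 to day 4 Tpx2 rose in 4-OHT-treated FL/FL cells (0.46, standard error 0.10, edgeR adjusted p = 0.00154) as it did in the other arms, and the change of its genotype difference did not pass (−0.18, edgeR adjusted p = 0.59).

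**Figure D4:**
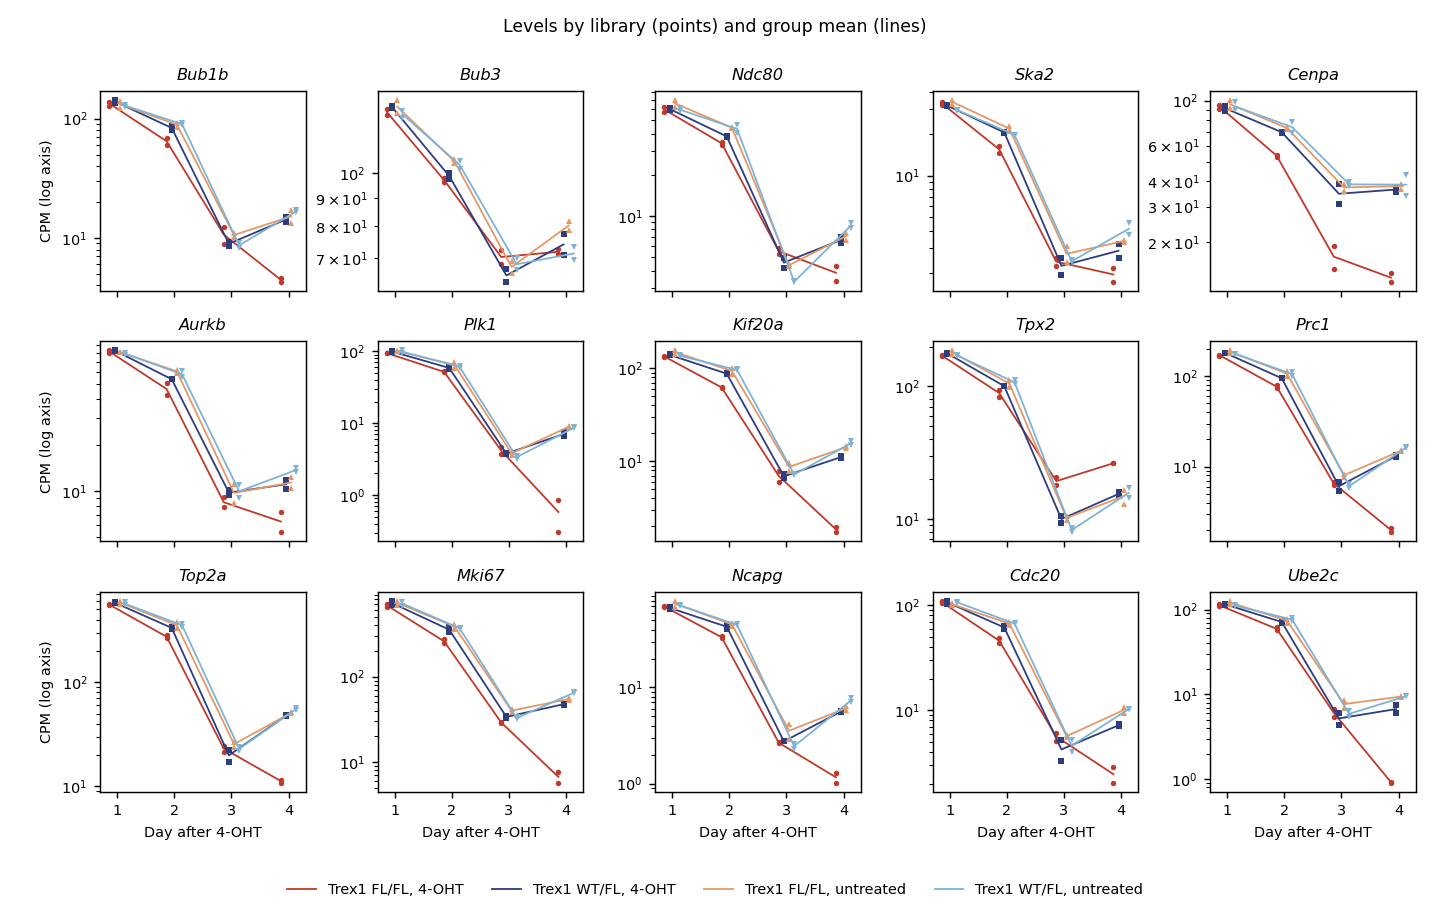
CPM on a log axis of 15 of the genes on days 1 to 4, 1 point per library with lines through the group means of the 4 arms. Plk1, Prc1 and Ube2c of 4-OHT-treated FL/FL cells go on falling after day 3, Bub3 falls little in any arm, Cenpa separates before day 4, and Tpx2 of 4-OHT-treated FL/FL cells runs above the other arms from day 3.

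In cytokinesis 3 of 4 genes were called lower on day 4 and all 4 were lower at an adjusted p below 0.05, with a median of −2.31. Prc1 (chromosome 7, 79944168 to 79966011, plus strand), which bundles the antiparallel microtubules of the midzone, held 173 and 169 CPM on day 1, 6.81 and 6.22 CPM on day 3 and 2.10 and 1.88 CPM on day 4 in 4-OHT-treated FL/FL cells. In WT/FL cells it held 182 and 183, 6.76 and 5.40, and 13.6 and 12.6 CPM. The day 4 pairs lay far apart relative to their spread (−2.72, standard error 0.11, edgeR adjusted p = 5.3e-16). Anln, an actin-binding scaffold of the cleavage furrow (−2.66), and Racgap1, a subunit of centralspindlin (−1.95), were called. Ect2, the exchange factor that activates RhoA there, was lower by −1.03.

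Of 6 genes of chromosome structure, 3 were called lower and 5 were lower at an adjusted p below 0.05, with a median of −1.73. Top2a, the topoisomerase that untangles sister chromatids, stood at 24.7 and 21.5 CPM on day 3 and 10.9 and 11.6 CPM on day 4 in 4-OHT-treated FL/FL cells, and at 22.5 and 17.2 and then 48.3 and 47.2 CPM in WT/FL cells (−2.09, standard error 0.10, edgeR adjusted p = 2.28e-14). Mki67, whose product coats mitotic chromosomes, went from 29.6 and 28.5 to 5.76 and 7.66 CPM in FL/FL and from 34.5 and 33.1 to 47.9 and 47.2 CPM in WT/FL cells. Top2a and Mki67 thus moved in opposite directions in the genotypes between these days. Among condensin subunits, Ncapg, of condensin I, was called (−2.28, 0.15, 2.1e-12) at 1.02 and 1.30 CPM against 5.64 and 5.60 CPM, and Ncaph, also of condensin I, was lower by −1.38. Of the core subunits shared by both condensins, Smc2 stood at 19.5 and 20.6 CPM against 31.8 and 32.4 CPM (−0.68) and Smc4 stood at 74.5 and 76.1 CPM against 73.9 and 81.5 CPM (−0.04, 0.07, 0.669).

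Both APC/C genes were called lower on day 4, with a median of −2.21. Ube2c (chromosome 2, 164611768 to 164620742, plus strand), the ubiquitin-conjugating enzyme of the complex, was at 6.69 and 5.44 CPM on day 3 and 0.914 and 0.938 CPM on day 4 in 4-OHT-treated FL/FL cells, and at 6.03 and 4.40 and then 7.46 and 5.99 CPM in WT/FL cells (−2.87, standard error 0.19, edgeR adjusted p = 7.77e-12). Cdc20, its activator and the target of the checkpoint, was at 2.05 and 2.88 CPM against 7.33 and 7.07 CPM (−1.56, 0.17, 2.39e-07). Without FL/FL 4-OHT day 4 replicate 1 the difference of Cdc20 was −1.33 and no longer past the fold threshold. The transcripts of Cdc20 share 22.7% of their 31-base words with other genes on the same strand, and 20.8% with the pseudogene Gm7856 alone. Whether the counting used strand is not given in the sources used here. On the opposite strand Spc25, Ska3 and Kif20a overlap other genes in 49.3, 49.1 and 48.2% of their words. Smaller shares were found in others, among them Aurka (32.9%), Ncapg (23.5%), Ube2c (19.3%), Nek2 (17.85%) and Ska2 (16.8%). The counts of such genes are less certain.

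Promoters of the genes were also read. The genes were chosen by name as mitotic genes, so that their motif shares describe the list and do not test why they moved. Of the 56 genes, 47 had at least 1 start site in the RefSeq table, 52 windows of 250 bases before and 50 bases after the start, and every window had exactly 1 match in GRCm39. Windows of a gene with several start sites can overlap and then count the same letters again. The letters TTTGAA or TTCGAA, the core of the cell cycle gene homology region (CHR) that the DREAM complex binds, were searched on both strands, of which the second reads the same on either. They stood in 73.1% of the 52 windows, in 19.2% of all 32851 windows of the table and in 14.4% of the 13467 windows of tested genes. CCAAT, the box of the factor NF-Y, searched on both strands, stood in 75% of the windows against 37.4 and 37.9%, and both motifs in 59.6% against 7.52 and 6.04%. The E2F letters TTTCGCGC or TTTGGCGC were in 3.85% of the windows against 0.813 and 1.49%. Genes called lower on day 4 had the CHR letters in 83.3% of 30 windows and the other genes in 59.1% of 22 windows. The latter count Cenpk several times, each time without these letters. In the same order CCAAT stood in 73.3 and 77.3%, both motifs in 66.7 and 50%, and the E2F letters in 3.33 and 4.55%. Whether these shares differ was not tested.

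Stretches of 150 bases are shown for 8 genes, 120 before and 30 after the start, with CHR letters and CCAAT or its reverse ATTGG in capitals. Aspm, Cenpf, Hmmr and Ube2c stand for genes far lower in 4-OHT-treated FL/FL cells on day 4, Cdc20 for a smaller difference, Nusap1 and Mad2l1 for a large and a small difference with neither motif in this stretch, and Bub3 for both motifs in a gene whose genotypes overlapped on day 4. Of Bub3 only the first start is shown. Matches are descriptions of letters and not of binding.
Aspm (GRCm39 chr1:139382391-139382540, plus strand): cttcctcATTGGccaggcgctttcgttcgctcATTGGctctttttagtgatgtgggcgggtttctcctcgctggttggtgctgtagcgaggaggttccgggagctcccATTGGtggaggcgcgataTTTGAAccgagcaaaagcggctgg
Nusap1 (GRCm39 chr2:119448659-119448808, plus strand): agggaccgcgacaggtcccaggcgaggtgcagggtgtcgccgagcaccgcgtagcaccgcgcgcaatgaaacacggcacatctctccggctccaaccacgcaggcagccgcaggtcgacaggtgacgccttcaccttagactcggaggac
Cenpf (GRCm39 chr1:189420254-189420403, minus strand): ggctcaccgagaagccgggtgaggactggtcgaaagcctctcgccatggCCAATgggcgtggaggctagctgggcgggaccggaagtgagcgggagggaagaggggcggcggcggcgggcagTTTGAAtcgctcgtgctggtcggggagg
Hmmr (GRCm39 chr11:40624235-40624384, minus strand): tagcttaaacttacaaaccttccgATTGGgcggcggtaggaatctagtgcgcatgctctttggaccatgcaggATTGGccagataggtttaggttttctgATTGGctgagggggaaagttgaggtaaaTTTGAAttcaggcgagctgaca
Ube2c (GRCm39 chr2:164611729-164611878, plus strand): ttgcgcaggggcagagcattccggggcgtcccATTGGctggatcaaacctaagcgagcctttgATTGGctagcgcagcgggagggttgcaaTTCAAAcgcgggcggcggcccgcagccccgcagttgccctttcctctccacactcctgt
Cdc20 (GRCm39 chr4:118294511-118294660, minus strand): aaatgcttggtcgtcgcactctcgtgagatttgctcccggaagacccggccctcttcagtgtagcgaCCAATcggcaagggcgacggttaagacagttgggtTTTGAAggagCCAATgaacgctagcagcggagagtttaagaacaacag
Mad2l1 (GRCm39 chr6:66512085-66512234, plus strand): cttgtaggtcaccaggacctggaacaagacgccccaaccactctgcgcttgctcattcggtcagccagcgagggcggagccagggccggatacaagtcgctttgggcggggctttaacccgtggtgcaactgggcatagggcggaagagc
Bub3 (GRCm39 chr7:131161979-131162128, plus strand): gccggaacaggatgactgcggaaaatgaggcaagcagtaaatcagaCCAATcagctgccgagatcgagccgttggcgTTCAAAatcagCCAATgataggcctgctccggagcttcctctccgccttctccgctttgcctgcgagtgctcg

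**Figure D5:**
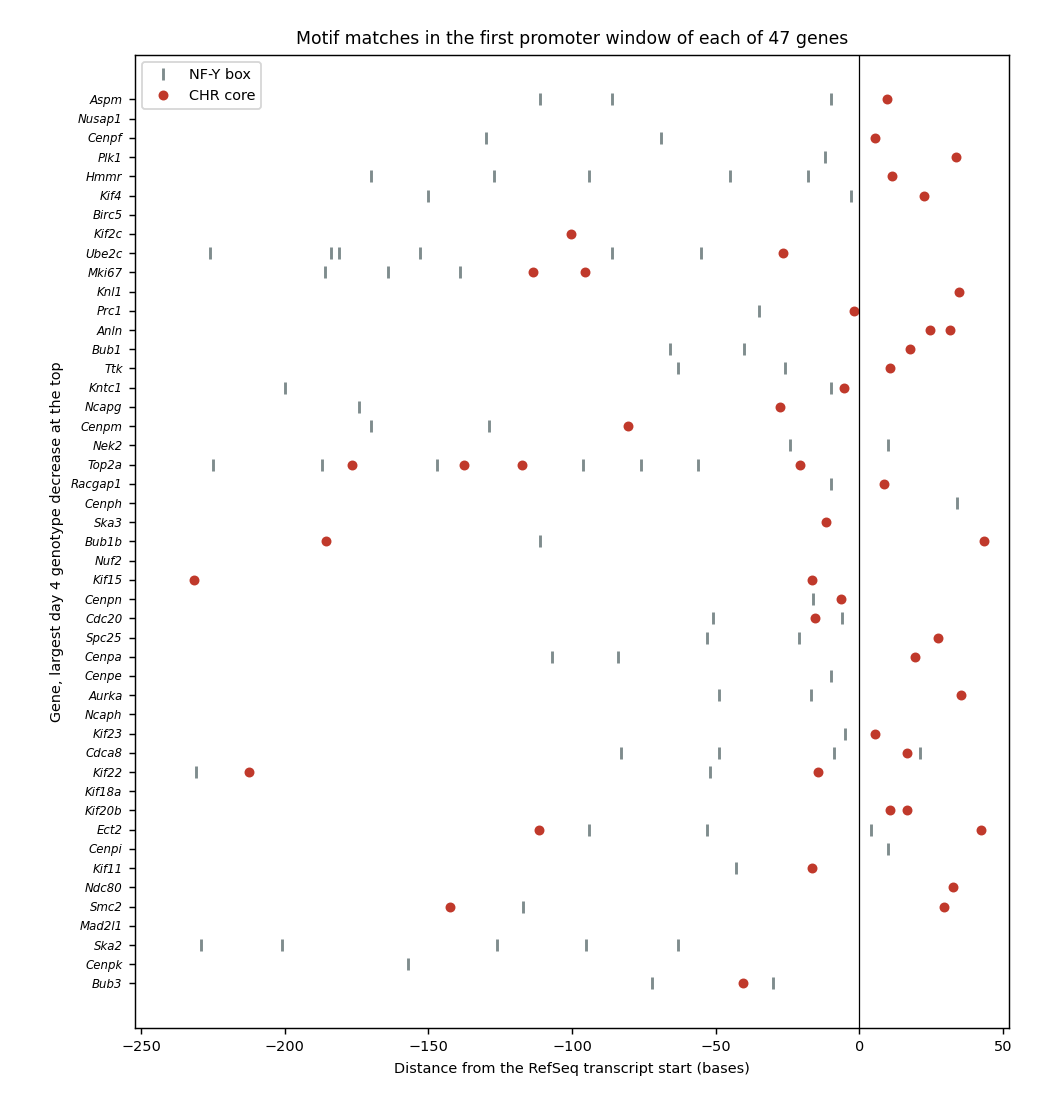
Position of CHR letters (dots) and of CCAAT on either strand (ticks) from the start site, in the first window of each of the 47 genes, ordered by the day 4 genotype difference after 4-OHT. Of the 46 CHR matches drawn, 36 lie within the 100 bases before the start or after it, in 34 genes.

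Within the windows the CHR letters of Aspm begin at base 7 and those of Hmmr at base 9, counted from 1 at the start, while those of Ube2c and Cdc20 lie 29 to 24 and 18 to 13 bases before it. Bub3, which stood at 55.6% of its day 1 level on day 4 in 4-OHT-treated FL/FL cells, has them 43 to 38 bases before its first start with CCAAT on either side. From its second start the same letters lie 167 to 162 bases upstream. The presence of the letters in the window thus did not separate Bub3 from Aspm, which stood at 0.526%.

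The untreated cells show how far these genes differed between the genotypes without 4-OHT. Animal, culture and batch are not named, so that genotype and source of the cells cannot be told apart. Untreated FL/FL and WT/FL cells differed by medians of 0.06, 0.02, 0.20 and −0.11 on days 1 to 4. On each day 0 of the 56 genes were called or passed an adjusted p of 0.05 in edgeR, and 0 were called by DESeq2. An unadjusted p below 0.05 was reached by 0, 0, 25 and 15 of the 56. Of all 15257 tested genes, 1129, 588, 468 and 2414 reached it. On day 3, 46 of the 56 genes were higher in sign in FL/FL cells, and on day 4, 44 were lower. Of all tested genes 0% were called on days 1 to 3 and 0.00655% as higher on day 4. Without a minimum fold, an adjusted p below 0.05 took 0% of all tested genes on days 1 and 3. It took 0.0131% as higher and 0.00655% as lower on day 2, and 0.826% as higher and 1.18% as lower on day 4.

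Against their own untreated cells, 4-OHT-treated FL/FL cells were compared next. This comparison shares its treated libraries with that of the genotypes. The medians were −0.08, −0.39, −0.22 and −1.75 on days 1 to 4. By edgeR and by DESeq2 0 genes were called on day 1 (0.00655% of all tested genes called lower, 2 of the 56 at an unadjusted p below 0.05), day 2 (0.131%, 50 of the 56) and day 3 (0.688%, 23 of the 56). On day 4, 37 were called lower (1.64% of all tested genes) and Tpx2 was higher by 0.84 (edgeR adjusted p = 2.06e-07), 1 gene where 13.7% of all tested genes were higher at an adjusted p below 0.05. Already on day 2, 40 genes were lower at an adjusted p below 0.05 (6.4% of all tested genes), with Cenpf at −0.67 (edgeR adjusted p = 3.65e-05). On day 3, 13 genes were lower at an adjusted p below 0.05 (11.7% of all tested genes) and 39 of 56 were lower in sign, with Cenpa at −1.15 (standard error 0.12, edgeR adjusted p = 1.1e-07), while Ndc80 (0.33), Nek2 (0.55) and Tpx2 (0.92) were higher at an adjusted p below 0.05, 3 genes where all tested genes gave 11.8%.

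Treated and untreated WT/FL cells differed little in the median of the group on days 1 to 3, and on day 4 most genes were lower in treated cells. Medians of 4-OHT-treated against untreated WT/FL cells were 0.02, −0.09, −0.03 and −0.27 on days 1 to 4, with 0.007 over all tested genes on day 4. Trex1 itself was lower in the treated cells, at 15.0 and 12.2 against 32.0 and 28.6 CPM on day 1. On day 4 it was at 47.8 and 49.0 against 78.6 and 89.9 CPM. The treated WT/FL cells thus differ in both 4-OHT and Trex1 level, and the part of each was not tested. On day 1 and day 2, 0 genes were called by edgeR and by DESeq2, and 0 and 3 of the 56 had an unadjusted p below 0.05 (0 and 0.0131% of all tested genes were called lower). On day 3 Ska1 was called lower (−1.69, standard error 0.29, edgeR adjusted p = 0.00184, where 0.0459% of all tested genes were), a call lost without WT/FL untreated day 3 replicate 1 or without either 4-OHT-treated library of that day. On day 4, 0 genes were called by both tools (0.0131% of all tested genes), but 51 of 56 were lower in sign. An unadjusted p below 0.05 was reached by 32 of the 56 (1080 of all 15257 tested genes). At an adjusted p below 0.05, 5 were lower (0.321% of all tested genes).

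Subtracting the untreated genotype difference from that after 4-OHT left the day 4 result in place. This interaction had a median of −1.52, with 28 genes called lower (1.02% of all tested genes) and 51 lower at an adjusted p below 0.05 (8.78% of all tested genes). Nusap1 (−3.98, standard error 0.21, edgeR adjusted p = 3.19e-13) and Aspm (−3.80, 0.28, 9.61e-10) were lower, and Tpx2 was higher (0.88, 0.14, 4.59e-05). Bub3, Ska2, Cenpk and Smc4 did not pass. On day 2, 6 genes were lower at an adjusted p below 0.05 (1.42% of all tested genes). On day 3 Cenpa was lower (−0.99, standard error 0.16, edgeR adjusted p = 0.000271), Tpx2 was higher (0.65, 0.15, 0.00687), and Ska1 was called higher (2.06, 0.41, 0.00159), 1 gene where 0.36% of all tested genes were.

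Across the 56 genes, those that fell most from day 2 to day 3 in untreated WT/FL cells had the most negative genotype differences after 4-OHT on day 4 (Spearman's rho 0.749, Pearson's r 0.644, n = 56 genes). Genes that rose most from day 3 to day 4 in untreated WT/FL cells also had the more negative differences (rho −0.608, r −0.603). In untreated FL/FL cells the values were 0.709 and 0.603 for the fall and −0.459 and −0.465 for the rise. The untreated steps share no library with the day 4 genotype difference after 4-OHT. The fall and the rise of an untreated arm share its day 3 libraries, however, and are not separate results. Genes are not independent replicates, and sparse genes add noise to both axes.

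Other genes of these processes were taken from lists by function. For comparison, between the 4-OHT-treated genotypes on day 4, 1.32% of all tested genes were called lower and 1.65% higher. At an adjusted p below 0.05, 16.8% were lower and 13.4% higher. Of 13 other centromere genes, 0 were called on day 4 between the 4-OHT-treated genotypes by edgeR, 7 had an unadjusted p below 0.05, 6 were lower at an adjusted p below 0.05, and the median was −0.35, from Oip5 (−0.93, edgeR adjusted p = 0.000174) to Cenpb (0.11). Of 12 other kinetochore and checkpoint genes, Sgo1 (−3.12, edgeR adjusted p = 1.86e-08) and Sgo2a (−1.95), which protect centromeric cohesion, were called, and Spdl1, which recruits dynein, was higher (0.56, 0.000228), around a median of −0.32. Of 18 other genes of the APC/C and of sister separation 0 were called by edgeR and 9 had an unadjusted p below 0.05, with 6 lower and 3 higher at an adjusted p below 0.05 and a median of −0.07. Among them Pttg1, the securin that the APC/C destroys, was higher by 1.13 (edgeR adjusted p = 5.86e-10).

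Cohesin and condensin genes outside the 56 had a median of −0.37 on day 4, with 2 of 14 called, the cohesin acetyltransferase Esco2 (−3.05, edgeR adjusted p = 1.3e-07) and the condensin I subunit Ncapd2 (−2.08), while the condensin II subunit Ncapg2 was higher (0.44, 0.000127). Of 27 other spindle and centrosome genes, 8 were called lower and 20 were lower at an adjusted p below 0.05, with Kif14, a midzone kinesin, lowest (−3.18, edgeR adjusted p = 7.88e-10). Regulators of mitotic entry had a median of −1.69, with 11 of 18 called lower and the cyclins Ccnb2 (−3.76, edgeR adjusted p = 3.26e-14) and Ccna2 (−3.58) in front.

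Genes of DNA replication were listed for comparison. Of 27, 4 were called lower on day 4 (1.32% of all tested genes) and 19 were lower at an adjusted p below 0.05 (16.8%). The median was −0.55, with the ribonucleotide reductase subunit Rrm2 lowest (−2.67, edgeR adjusted p = 1.55e-15). They had fallen from day 2 to day 3 by a median of −2.35 in 4-OHT-treated FL/FL cells, with 22 of 27 called (3.79% of all tested genes were called lower). From day 3 to day 4 in the same arm their median was 0.26, where the 56 mitotic genes had a median of −0.92. At an adjusted p below 0.05, 9 replication genes were higher (6.73% of all tested genes) and 1 was lower (9.01%). In 4-OHT-treated WT/FL cells the replication genes had a median of 0.77 over this step, with 23 higher (10.3% of all tested genes), beside 0.89 for the mitotic genes. The change of the genotype difference from day 3 to day 4 had a median of −0.42 for replication genes. Of these, 12 were lower at an adjusted p below 0.05 (3.87% of all tested genes). The medians were −1.80 for the regulators of mitotic entry and −1.85 for the mitotic genes, and the difference between these lists was not tested.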

How the data were processed

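Total RNA of 32 libraries was sequenced on an Illumina instrument. Per the paper's methods and the submitters' notes, demultiplexing used JE, read quality was assessed with FastQC 11.9, and the authors obtained estimated counts from Salmon transcript quantification on GRCm39, collapsed to genes by tximport. The deposited table holds these estimated counts as whole numbers that are not normalized, and tximport's length correction was not applied here. Salmon divides reads between transcripts that share sequence, which makes counts of genes with close copies less certain.

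Symbols and coordinates came from GENCODE vM39, which matched 51048 of 54281 identifiers without their version. The quasi-likelihood test of edgeR 4.0.16 (R 4.3.3, glmQLFTest after a robust glmQLFit) was run on the deposited counts. A model of 16 group means, scaled by TMM, covered the 32 libraries and had 16 residual degrees of freedom. The filter on low counts (minimum count 10) kept 15257 genes, with a common biological coefficient of variation of 0.0912. CPM were scaled by TMM, log2 CPM used a prior count of 2 and log2 fold changes a prior count of 0.125. For 2 libraries against 2 an exact permutation test cannot go below p = 0.333, so none was used. The code was tested on simulated data. Alternatives were RLE factors, no filter, DESeq2 1.42.0, a threshold of 0.05 without a fold, fits of the compared groups alone, the interaction with untreated cells and leaving out each library. Promoter windows were RefSeq's (table build GRCm38.p6), placed on GRCm39 by exact match.

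The 56 genes, the other gene lists and the tests were chosen with earlier results of these data known. Values in each library were given for 15 genes fixed by role, and in each main comparison the 3 largest and 3 smallest changes and genes against the median were named. Genes named beyond this rule were chosen after their values were seen.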

Additional observations from a re-analysis of the deposited data

Results flagged for a closer look

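Differences between days or between treated and untreated cells in the genotype effect were tested in the edgeR model. From day 3 to day 4 after 4-OHT, the difference of FL/FL from WT/FL cells changed past both thresholds in 35 of the 56 genes, each toward lower levels in FL/FL cells. The genotype difference after 4-OHT departed from that of untreated cells in 28 genes on day 4, all lower, and in 1 gene on day 3, Ska1, which was higher. Ska1 was sparse on day 3, with 16 and 28 counts in 4-OHT-treated FL/FL and 13 and 8 in 4-OHT-treated WT/FL cells. Untreated FL/FL cells held 19 and 9 counts and untreated WT/FL cells 40 and 22.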

How the results depend on the processing

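RLE factors and DESeq2 left each of the 31 counts of called genes within 1.5 times its value, as did fits of the compared groups alone for the 4 counts between 4-OHT-treated genotypes, where they were run. Median log2 fold changes were judged against the spread of the genes' mean level within groups. With 1 library left out, 41 medians moved by at least this spread and 95 did not. Under RLE factors 1 moved, under DESeq2 1, and as an interaction with untreated cells 3. A threshold of 0.05 on the adjusted p, whatever the fold, gave more genes. Between 4-OHT-treated genotypes it gave 21, 10 and 53 on days 2, 3 and 4, and for how this difference changed, 3 from day 1 to 2 and 13 from day 2 to 3. It gave 56, 56, 55 and 56 from day 1 to day 2 and 42, 49, 46 and 51 from day 3 to day 4 in 4-OHT-treated FL/FL, 4-OHT-treated WT/FL, untreated FL/FL and untreated WT/FL cells. Against untreated cells it gave 40 and 16 in FL/FL cells on days 2 and 3 and 5 in WT/FL cells on day 4. As an interaction with untreated cells day 3 gave 1 gene, and without a filter the change from day 2 to day 3 gave 1. With 1 library left out, counts ranged from 0 to 1 (day 2 against day 1, 4-OHT FL/FL), 0 to 3 (day 4 against day 3, 4-OHT WT/FL), 0 to 2 (the same, untreated FL/FL), 6 to 11 (untreated WT/FL) and 0 to 1 (4-OHT against untreated WT/FL, day 3). Bub3 ranged from −0.11 to 0.021 (edgeR adjusted p = 0.89) on day 4, the latter without WT/FL 4-OHT replicate 1, Cenpk from −0.68 to 0.072 (the latter without WT/FL 4-OHT replicate 1) and Smc4 from −0.12 to 0.027 (the latter without WT/FL 4-OHT replicate 2), and none passed at either end. The cause was not tested. No paired analysis was possible because the labels give no replicate numbers. Depth limits many called genes: in the 4-OHT-treated FL/FL libraries of day 4 Cenpm held 2 and 7 counts, Ska1 5 and 2, Spc24 8 and 4, Ttk 9 and 21, Plk1 31 and 10, Aspm 17 and 15, Kif4 21 and 12, Nusap1 24 and 10 and Kif2c 28 and 16. Leaving out each library was extended to all 56 genes for the day 4 genotype difference after seeing the data, and 6 of the 32 called genes moved by over 1.5 times.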
